A study of Mus musculus with 4 samples.

Results

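The genes described here belong to the T cells and innate lymphoid cells of the blood system, and were read in sorted mouse bone marrow fractions of the stem cell compartment. Members were all probe sets (groups of short array probes that together report a transcript) annotated to a single one of 10 gene symbols: Il7r, Icos, Cd28, Cxcr6, Cd3g, Thy1, Il2ra, Gata3, Rora and Il1rl1. Of these, 9 genes had such probe sets, of 18193 genes so annotated, with 23 probe sets among the 45101 of the table, and Il1rl1 was not analysed here. A pair of fractions was compared, on 2 Affymetrix arrays each. Long-term haematopoietic stem cells (LT-HSC) were sorted as Lin-cKit+Sca1+CD34-CD135- and short-term haematopoietic stem cells (ST-HSC) as Lin-cKit+Sca1+CD34+CD135-. All mice were controls on a C57BL/6 background that lacked the interferon-inducible Mx-Cre transgene, and every mouse was given poly(I:C), an interferon-inducing RNA mimic, 7 times. The mice of both LT-HSC arrays and of ST-HSC replicate 2 were 7.5 weeks old and 4 weeks past the last dose. Those of ST-HSC replicate 3 were 8.5 weeks old and 3 weeks past it. Groups follow the sample titles, since the ST-HSC samples carry the CD34+ gate but a tissue entry of LT-HSC. The labels do not say whether replicates were separate animals or pools, nor which antibodies made up the lineage cocktail.

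The members were chosen with the LT-HSC against ST-HSC difference of these arrays in view, so that difference is given for each of them as a description. How many of them limma called is also given, only beside the share of all probe sets, and is no test of the members. Values are intensities as deposited, or quantile-normalized log2(intensity + 16) where a log2 value, a difference or a fold is given. The added 16 lowers the fold of dim probe sets. A difference is the LT-HSC mean minus the ST-HSC mean, and its error is a moderated standard error (SE) with 2 arrays a group. Levels of different probe sets are not comparable with each other. ST-HSC replicate 3 stood apart in markers of granulocytes, and both LT-HSC arrays carried strong signal of plasma cell markers, whose values follow the members'.

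T cells recognise antigen through a receptor that signals by the CD3 chains, and need a second signal through the costimulatory receptors CD28 and ICOS. Innate lymphoid cells have no antigen receptor. Most depend on interleukin-7 for survival, and the tissue-resident class known as group 2 is specified by the transcription factors GATA3 and RORα. Several of these genes are shared: T cells and innate lymphoid cells both carry the interleukin-7 receptor and the surface protein Thy1, and Gata3 and Thy1 are also known from stem cells of the marrow.

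The RefSeq promoter table (GRCm38.p6, 250 bases before to 50 after a gene's start) held a promoter for 6 of the 9 genes. These were searched on both strands for AGATAA and TGATAA, the core of GATA factor sites, and, chosen later, for AGGTCA, the half-site of ROR and other nuclear receptors, and TGTGGT, the core of RUNX sites. None of these motifs overlapped another in the member promoters. The 3 promoters with a match are shown because they belong to Cxcr6 and Il7r, whose differences were among the larger ones, and to the CD3 chain gene; capitals mark the match.
Il7r, chr15:9529827-9530126, minus strand: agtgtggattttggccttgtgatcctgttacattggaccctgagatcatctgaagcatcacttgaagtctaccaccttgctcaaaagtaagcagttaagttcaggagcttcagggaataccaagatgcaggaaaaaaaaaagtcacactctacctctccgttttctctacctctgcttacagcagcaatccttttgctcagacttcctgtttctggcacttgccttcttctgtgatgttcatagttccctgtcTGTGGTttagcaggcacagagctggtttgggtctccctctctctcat
Cxcr6, chr9:123806227-123806526, plus strand: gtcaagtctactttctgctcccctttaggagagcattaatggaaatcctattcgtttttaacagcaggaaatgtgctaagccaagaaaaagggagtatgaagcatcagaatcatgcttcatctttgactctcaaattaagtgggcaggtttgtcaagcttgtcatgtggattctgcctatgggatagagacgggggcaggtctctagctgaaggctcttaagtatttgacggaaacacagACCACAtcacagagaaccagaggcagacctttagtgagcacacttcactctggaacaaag
Cd3g, chr9:44980382-44980681, minus strand: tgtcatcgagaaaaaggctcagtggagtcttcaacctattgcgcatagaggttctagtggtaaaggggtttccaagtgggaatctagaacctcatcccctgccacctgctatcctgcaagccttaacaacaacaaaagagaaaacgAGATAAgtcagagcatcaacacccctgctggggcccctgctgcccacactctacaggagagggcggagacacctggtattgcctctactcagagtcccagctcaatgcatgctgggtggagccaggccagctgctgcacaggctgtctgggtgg
Il7r and Cxcr6 each held 1 TGTGGT, in Il7r from 3 bases after the start and in Cxcr6 on the opposite strand 10 bases before it, so that ACCACA is read there. Cd3g held 1 AGATAA, 104 bases before the start. Il2ra, Gata3 and Rora held no match. Of all 32851 promoters of the table, 18.6% held a GATA core, 16.3% the ROR half-site (0 of 6 members) and 16.8% the RUNX core.

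Il7r encodes the receptor chain that interleukin-7 and thymic stromal lymphopoietin share. Its brighter probe set (1448575_at) read 981 and 1118 in LT-HSC, compared with 16.9 and 39.9 in ST-HSC. The other (1448576_at) read 85.0 and 120 in LT-HSC, compared with 1.78 and 11.7 in ST-HSC. Both LT-HSC arrays lay far above both ST-HSC arrays at each. The differences were 4.59 (SE 0.37, 24-fold) and 2.53 (SE 0.34, 5.77-fold). In ST-HSC, replicate 3 exceeded replicate 2 by 0.81 and 0.58, while the LT-HSC pair differed by 0.23 and 0.18. Fewer cells of a type and less RNA per cell cannot be told apart in RNA pooled from sorted cells.

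Cxcr6, the receptor for the chemokine CXCL16 on T, NKT and innate lymphoid cells, had the largest difference of the members at the pseudocount of 16. Its main probe set (1422812_at) read 481 and 414 in LT-HSC, compared with 0.483 and 0.311 in ST-HSC, values near the bottom of the scale. The difference was 4.82 (SE 0.30, 28.3-fold) and rests on the pseudocount: with 1 in place of 16 it was 8.43, and with 64 it was 2.98, below the 3.55 of Il7r 1448575_at. Without ST-HSC replicate 3 Il7r was also the higher, at 5.02 beside 4.82. A second probe set (1425832_a_at) read 17.9 and 47.7 in LT-HSC, compared with 8.14 and 5.08 in ST-HSC (difference 1.15, SE 0.33). That probe set lay just under the limit for testing, a mean log2 of 5.03 over the 4 arrays, at 5.02, and the dimmest member kept, Icos 1421931_at, lay at 5.07.

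**Figure D1:**
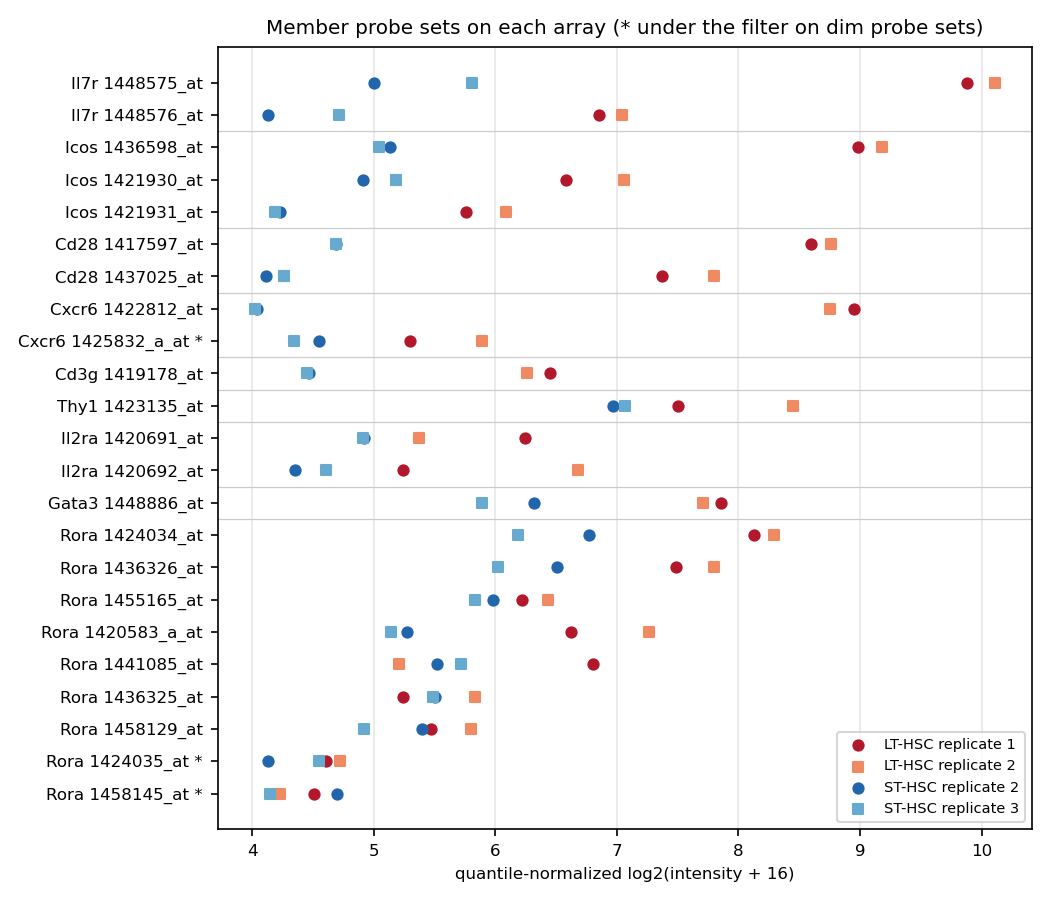
Quantile-normalized log2(intensity + 16) of the 23 member probe sets on each array, grouped by gene, with LT-HSC in red shades and ST-HSC in blue shades. At Il7r, Icos, Cd28, Cxcr6, Cd3g and Gata3 the red points lie right of the blue ones, while at 3 of the 9 Rora probe sets they overlap.

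CD28 and ICOS are related costimulatory receptors of T cells, and ICOS is also carried by group 2 innate lymphoid cells. Cd28 read 363 and 419 in LT-HSC, compared with 10.5 and 11.3 in ST-HSC, at 1417597_at (difference 3.99, SE 0.30, 15.9-fold). At 1437025_at it read 133 and 208 in LT-HSC, compared with 1.60 and 3.96 in ST-HSC (3.39, SE 0.32). The 2 probe sets of Cd28 thus both showed LT-HSC far above ST-HSC, with no overlap. Icos read 495 and 566 in LT-HSC, compared with 20.2 and 18.3 in ST-HSC, at 1436598_at (4.00, SE 0.30, 16-fold). Its dimmer probe sets had smaller differences. At 1421930_at it read 66.6 and 122 in LT-HSC, compared with 14.9 and 21.5 in ST-HSC (1.78, SE 0.33), and at 1421931_at 30.2 and 57.0 in LT-HSC, compared with 3.23 and 2.89 in ST-HSC (1.71, SE 0.31). Several of these values also move with the pseudocount: with 1 and 64, Cd28 1437025_at had 5.85 and 1.86, Icos 1421931_at 3.72 and 0.71, and Il7r 1448576_at 4.40 and 1.30. All 3 probe sets of Icos had both LT-HSC arrays above both ST-HSC arrays.

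Cd28, Ctla4 and Icos lie next to one another on the chromosome, and Ctla4 encodes the inhibitory receptor that shares its ligands with CD28. Ctla4 read 97.4 and 136 in LT-HSC, compared with 36.7 and 27.6 in ST-HSC, and rose in LT-HSC (1.60, SE 0.31, adjusted p = 0.0222 in limma). It did not pass without LT-HSC replicate 1 (difference 1.69) or 2 (difference 1.52). Raph1, on the other side of Cd28, was also called higher (1.84), and Pard3b beyond Icos was not (-0.44). The chemokine receptor gene Ccr9, which lies near Cxcr6 and is also one of the innate lymphoid genes listed, was called higher (2.73), while Xcr1 and Ccr1 on its other side had 0.16 and -1.60 and did not pass. Of the genes beside Il7r (Ugt3a2, Capsl and Spef2), none was bright enough to be tested, with intensities of at most 28.0 on any array. No difference between LT-HSC and ST-HSC passed at the neighbours analysed for Thy1, Il2ra and Gata3, while Anxa2, the next gene but one after Rora, fell by 2.20. The calls of Raph1, Anxa2 and Ube4a, the gene beside Cd3g, were lost whichever LT-HSC array was left out, while their differences kept their direction. Such losses were not particular to these genes, as calls over all probe sets changed widely with an array left out.

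**Figure D2:**
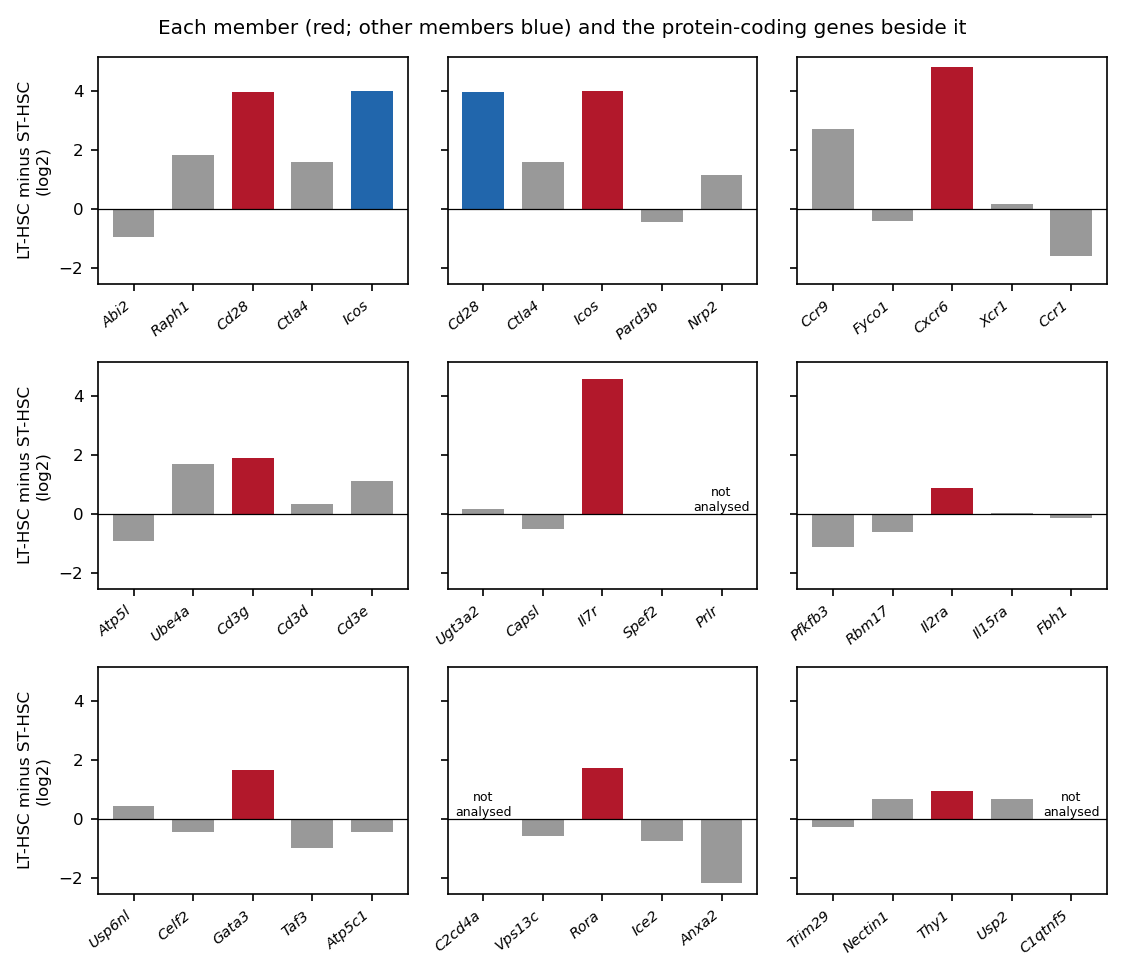
LT-HSC minus ST-HSC difference (log2 scale, bars from 0) of each member at its brightest probe set and of up to 2 protein-coding genes on either side, in chromosomal order and not to distance. Cd28, Ctla4 and Icos stand above 0 side by side. Il7r, at 4.59, stands beside genes too dim to be tested, whose short bars do not show equal levels.

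The CD3 chains carry the signal of the T-cell receptor, and CD3γ (Cd3g) is one of them. Cd3g had 1 probe set, which read 59.3 and 66.2 in LT-HSC, compared with 6.75 and 7.07 in ST-HSC (1.90, SE 0.30, 3.73-fold). With a pseudocount of 1 the difference was 3.29, and with 64 it was 0.89. The arrays of a group lay close together, within 0.19 in LT-HSC and 0.02 in ST-HSC. The genes of the CD3ε and CD3δ chains lie beside Cd3g and were dim. Cd3e read 31.7 and 20.8 in LT-HSC, compared with 6.80 and 2.35 in ST-HSC (1.13), and Cd3d read 2.47 and 33.0 in LT-HSC, compared with 7.52 and 10.5 in ST-HSC (0.35), so that the LT-HSC arrays disagreed on Cd3d. Neither was bright enough to be tested. Ube4a, on the other side of Cd3g, was called higher in LT-HSC (1.70). Cd247, the ζ chain, read 35.0 and 38.2 in LT-HSC, compared with 15.0 and 8.93 in ST-HSC, and did not pass (1.04, SE 0.32, adjusted p = 0.0797 in limma).

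Thy1, a glycolipid-anchored surface protein of T cells, innate lymphoid cells and, at a low level, mouse stem cells, was present in both fractions. It read 148 and 332 in LT-HSC, compared with 123 and 117 in ST-HSC (0.96, SE 0.39, 1.94-fold). The ST-HSC pair agreed within 0.11 and the LT-HSC pair differed by 0.95, about as much as the groups did. Leaving out LT-HSC replicate 1 gave 1.38, and leaving out replicate 2 gave 0.49. Il2ra, the high-affinity chain of the interleukin-2 receptor (CD25), was dim and uneven. At 1420691_at it read 48.7 and 28.9 in LT-HSC, compared with 15.0 and 15.5 in ST-HSC (0.89, SE 0.38). At 1420692_at it read 16.4 and 91.5 in LT-HSC, compared with 5.02 and 9.85 in ST-HSC (1.48, SE 0.49). The LT-HSC arrays thus ranked in opposite order at its 2 probe sets, with replicate 2 below replicate 1 by 0.87 at the first and above it by 1.45 at the second. Leaving out LT-HSC replicate 1 gave 0.46 and 2.21 at these probe sets, and leaving out replicate 2 gave 1.33 and 0.74.

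The transcription factor genes had signal in both fractions. Gata3, required for T cells and group 2 innate lymphoid cells, read 199 and 195 in LT-HSC, compared with 73.8 and 42.8 in ST-HSC (1.67, SE 0.32, 3.19-fold). Rora, the nuclear receptor RORα, was covered by 9 probe sets that did not behave alike. The brightest (1424034_at) read 252 and 296 in LT-HSC, compared with 107 and 55.6 in ST-HSC (1.73, SE 0.33, 3.31-fold). A further pair had comparable values, 1436326_at at 1.38 (SE 0.33) and 1420583_a_at at 1.73 (SE 0.34). The remaining 6 lay between -0.06 and 0.47. At 1441085_at the LT-HSC arrays straddled the ST-HSC ones, with 80.9 and 24.2 in LT-HSC, compared with 33.1 and 36.5 in ST-HSC, and its difference of 0.39 became -0.41 when replicate 1 of LT-HSC was left out and 1.20 when replicate 2 was. The transcript each probe set reports was not determined here. At Gata3 and at the 2 brightest Rora probe sets ST-HSC replicate 3 read lower than replicate 2, by 0.43, 0.58 and 0.49 on the log2 scale.

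**Figure D3:**
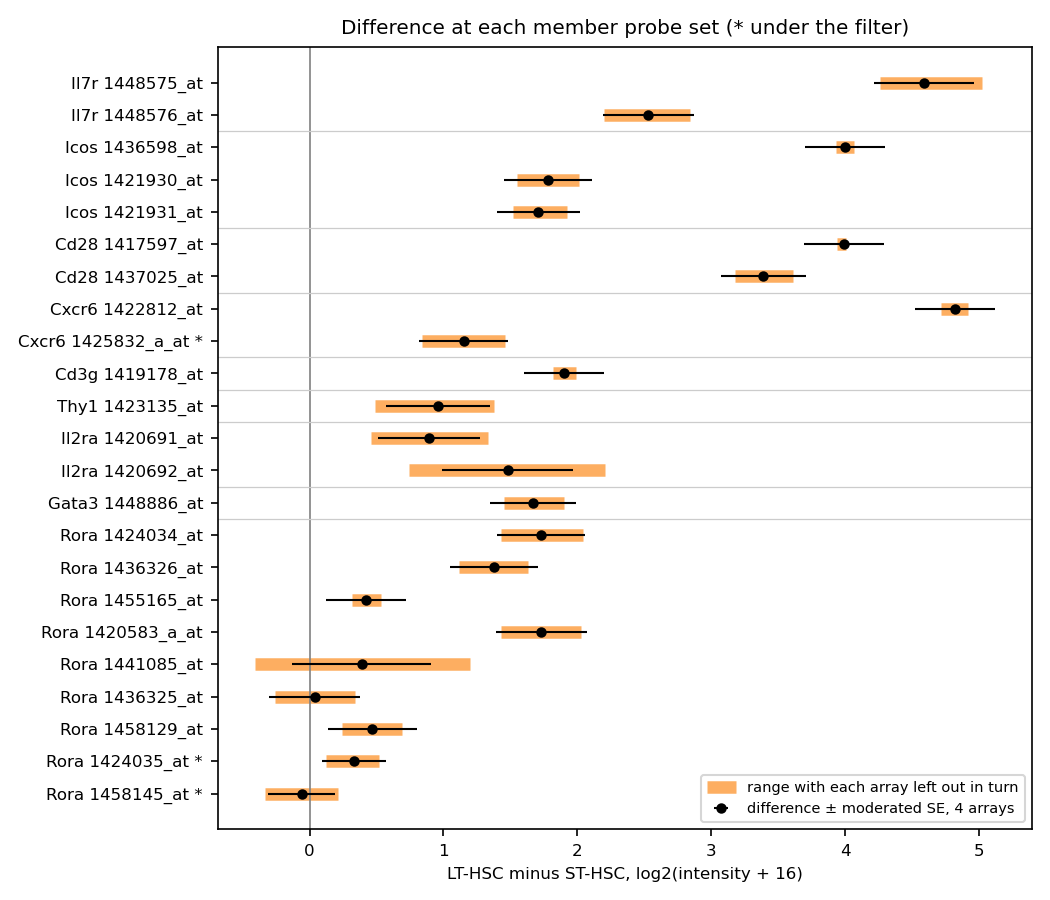
LT-HSC minus ST-HSC difference of each member probe set on the log2(intensity + 16) scale, with points and bars for the value and its moderated SE over 4 arrays and orange bands for the range when each array is left out in turn. Only Rora bands cross 0, and those of Il2ra, Thy1 and Rora 1441085_at are wide for their differences.

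Over all 23 member probe sets, LT-HSC averaged above ST-HSC at 22, the exception being the dim Rora 1458145_at (-0.06), and both LT-HSC arrays lay above both ST-HSC arrays at 20, a pattern held by 23.8% of all probe sets. With intensities as deposited it was 17. Of the 20 bright enough to be tested, 13 lay past limma's threshold (adjusted p under 0.05) as higher in LT-HSC and 0 as lower, where 6.72% of all tested probe sets were called higher and 5.48% lower; both counts restate how the members were chosen and nothing is read from them. Fewer member probe sets were called without LT-HSC replicate 1 or 2. Leaving out an array also changed the calls over all probe sets widely. The median difference was 1.67 over the 23, beside -0.03 over all probe sets. Within LT-HSC, replicate 2 read above replicate 1 at 17 of the 23, by a median of 0.22, beside 0.02 over all probe sets.

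Other genes of T cells and their receptor were read from a list of 35, of which 29 were on the array under their symbol and 18 bright enough to be tested, each at its brightest probe set. Of these, 6 passed as higher in LT-HSC and 0 as lower, and 12 missed the threshold, where 7.92% of all 12832 genes were called higher and 6.41% lower. At an unadjusted p under 0.05 the limma counts were 10 higher and 1 lower, where 15.1% of all genes were higher and 18% lower. The list's median difference was 0.83, beside -0.08 over all genes. This list and those that follow were written with earlier results of these data known, so their counts are descriptions. Btla, an inhibitory receptor of B and T cells, led with 893 and 781 in LT-HSC, compared with 34.2 and 41.3 in ST-HSC (3.98, SE 0.30, adjusted p = 0.000818). Bcl11b, a factor of T-lineage commitment and of group 2 innate lymphoid cells, read 290 and 324 in LT-HSC, compared with 38.3 and 28.7 in ST-HSC (2.80, SE 0.30, adjusted p = 0.00326; 2 of 4 probe sets called). The adhesion receptor gene Cd2 read 92.0 and 144 in LT-HSC, compared with 17.8 and 22.2 in ST-HSC, and rose 4.0-fold. Ets1 (a log2 difference of 1.73, 1 of 4 probe sets), the calcium-dependent kinase gene Camk4 (1.68, 1 of 5) and Ctla4 also rose. In ST-HSC Camk4 averaged 4.62, under the limit for testing (5.03), and it was kept through its LT-HSC values. Zap70, the kinase that binds the CD3 chains, differed by 0.33 and did not pass at its brightest probe set (59.7 and 75.4 in LT-HSC, compared with 51.2 and 61.6 in ST-HSC), although 1 of its 3 probe sets was called higher. Lat, the adaptor downstream of it, read 404 and 418 in LT-HSC, compared with 488 and 328 in ST-HSC (0.02, SE 0.30, adjusted p = 0.972). Cd4 (0.83) and Cd8a (-0.05) did not pass, and Cd8b1 and Ptcra, the pre-T-cell receptor chain, stayed under 16 on all 4 arrays, as did Cd226 and Sh2d1a. Without LT-HSC replicate 1, 2 of the 6 calls were left (Btla and Bcl11b), and without LT-HSC replicate 2, only Btla. Calls over all probe sets also changed widely when an array was left out. Lck and Tcf7 were not analysed here.

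Of 34 further genes of innate lymphoid cells, 29 were on the array under their symbol and 20 were tested. Of these, 7 passed as higher in LT-HSC and 0 as lower, and 13 missed the threshold. Over all genes 7.92% were called higher and 6.41% lower. The median difference of the list was 1.06. Like the T-cell list, it was written with earlier results of these data known. At an unadjusted p under 0.05 limma gave 11 higher and 0 lower (15.1% and 18% of all genes). Il17rb, a chain of the interleukin-25 receptor, read 305 and 252 in LT-HSC, compared with 26.2 and 31.3 in ST-HSC (2.78, SE 0.31, adjusted p = 0.00375). Ccr9, a gut-homing chemokine receptor, rose by 2.73 (6.65-fold) on 1 of its 5 probe sets. Arg1, arginase 1, which group 2 cells and some macrophages express, read 171 and 123 in LT-HSC, compared with 9.88 and 11.0 in ST-HSC (2.71). Klrg1, a lectin-like inhibitory receptor (2.37), Ccr6 (2.06), the cytokine gene Il4 (1.91) and Ltb, lymphotoxin β (1.30), rose as well. In ST-HSC Ccr9, Arg1 and Ccr6 averaged under the limit for testing (5.03), and they were kept through their LT-HSC values. Ccr6 and Ltb are also known from B cells. Id2, the inhibitor of E proteins that all innate lymphoid cells need, read 472 and 517 in LT-HSC, compared with 28.5 and 187 in ST-HSC and did not pass (2.45, SE 0.68, adjusted p = 0.0611). Il18r1 did not pass (1.26, SE 0.50, adjusted p = 0.148), nor did Zbtb16, a factor of innate lymphoid precursors, which read 18.1 and 71.7 in LT-HSC, compared with 138 and 72.8 in ST-HSC (-0.97, SE 0.44, adjusted p = 0.192). The group 2 cytokine genes Il13 and Il5 were under the limit for testing, Il13 with 10.8 and 16.4 in LT-HSC, compared with 17.5 and 19 in ST-HSC. Without LT-HSC replicate 1 only Ccr9 and Arg1 kept their calls, and without LT-HSC replicate 2 only these, Il17rb and Klrg1. Leaving out an array also changed the calls over all probe sets widely.

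The third list held partners and ligands of the member receptors and proteins that relay their signals. Of its 37 genes, 34 were on the array under their symbol and 30 were tested, of which limma called 0 in either direction (5 higher and 2 lower at an unadjusted p under 0.05), with a median difference of 0.25. At that unadjusted limit 15.1% of all genes were higher and 18% lower, so that the 5 of 30 lie near the background. At the adjusted threshold the calls of this list changed when an ST-HSC array was left out. The differences moved too: Pim1 had 2.34 without ST-HSC replicate 2 and 0.33 without replicate 3, and Stat5b had -0.87 and -1.72. Crlf2, the partner of the interleukin-7 receptor chain for thymic stromal lymphopoietin, was bright in both fractions, with 2374 and 2558 in LT-HSC, compared with 1872 and 1201 in ST-HSC (0.46, SE 0.27, adjusted p = 0.298). The kinase gene Jak3 had -0.34 and Jak1 -0.43, and Stat5b, which acts below the interleukin-7 and interleukin-2 receptors, had -1.29 (SE 0.41, adjusted p = 0.086). Il2rb, the β chain of the interleukin-2 receptor, was dim, with 5.02 and 22.4 in LT-HSC, compared with 8.50 and 20.0 in ST-HSC. Cish and Pim1, targets of STAT5, had 1.24 and 1.32 and did not pass. Mcl1 (1.23), Bcl2 (0.69) and Socs2 (0.50) did not pass at their brightest probe sets either. Of their probe sets, 3 of 6, 2 of 5 and 1 of 6 were called higher. Among ligands, Icosl had 0.32 (1 of its 2 probe sets was called higher), Cxcl16 1.21 (69.7 and 26.5 in LT-HSC, compared with 6.42 and 18.8 in ST-HSC) and Cd86 0.29, and none of the 3 passed. Il1rap, the partner chain of the interleukin-33 receptor, had 0.05, and Il33, Il2, Il7 and Cd80 were under the limit for testing. Il2rg was not analysed here.

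**Figure D4:**
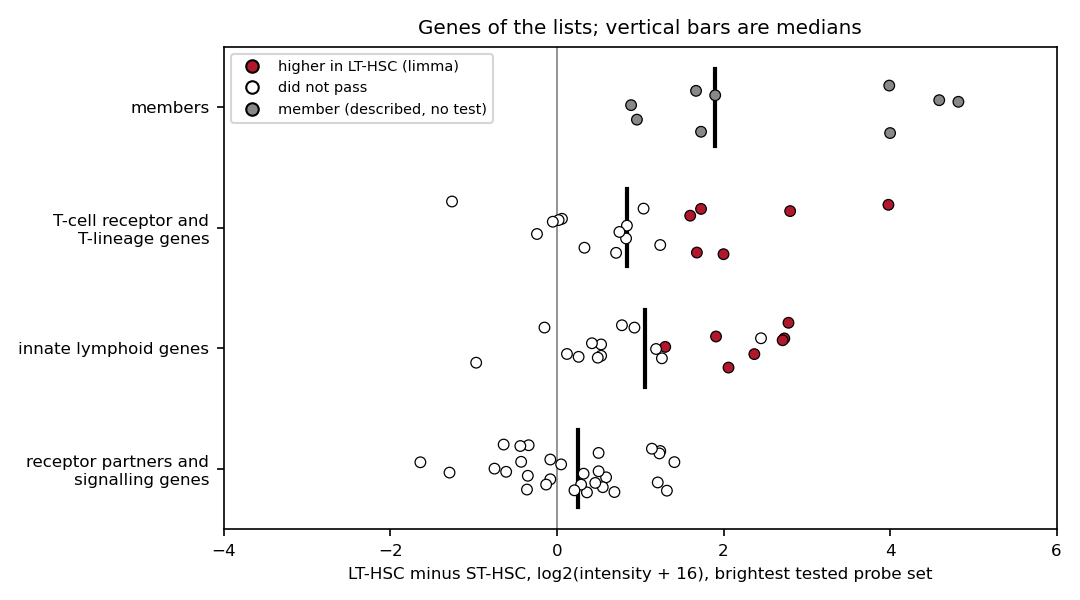
LT-HSC minus ST-HSC difference of each gene at its brightest tested probe set, for the 9 member genes (grey, described only) and the 3 lists, with red for genes higher in LT-HSC in limma, white for genes that did not pass and vertical bars for medians. The T-cell and innate lymphoid lists spread to the right (medians 0.83 and 1.06), and the list of partners lies around 0.25 with no red point.

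Markers of other cells were read on the same arrays. All 9 plasma cell markers were higher in LT-HSC, with a summed intensity of 65083 and 66190 in LT-HSC, compared with 1727 and 3214 in ST-HSC. Of 7 tested B-cell markers 4 were higher (Ms4a1, Cd79a, Cd79b and Blk) and 0 lower, with sums of 4748 and 5265 in LT-HSC, compared with 336 and 442 in ST-HSC. No plasma cell or B-cell marker was under 16 on all arrays. Of 6 tested NK and cytotoxic cell markers Klrd1 (2.39), Gzma (2.33) and Ccl5 (1.47) were higher and Nkg7 lower (-2.63). The list summed to 486 and 1133 in LT-HSC, compared with 1520 and 1686 in ST-HSC. Nkg7 alone gave 137 and 313 of this in LT-HSC, compared with 1277 and 1404 in ST-HSC, so the direction of the sum is that of its probe set. The NK markers Ncr1, Klrk1, Prf1 and Eomes were under the limit for testing. Of 4 tested eosinophil markers Il5ra (3.27) and Prg2 (2.38) were higher and Epx (-1.99) and Siglecf (-1.74) lower. Of 8 mast cell and basophil markers Mcpt8 was higher and Ms4a2 lower, with a list median of -0.74. At an unadjusted p under 0.05 limma gave 1 of these 8 higher and 3 lower, beside 15.1% and 18% of all genes. Cd74, H2-Aa (1 of 4 probe sets) and Cd68 were higher among 10 macrophage and dendritic cell markers, with 0 lower. The other 7 did not pass, with differences from -1.37 (Flt3) to 1.21 (Marco), among them Csf1r (0.94) and Adgre1 (0.38). Of 9 stem cell markers limma called 0 in either direction (0 higher and 1 lower at an unadjusted p under 0.05, beside 15.1% and 18% of all genes), with a median of -0.25. Without LT-HSC replicate 1 the 4 B-cell markers and 8 of the 9 plasma cell markers (all but Igha) still passed, and the same held without LT-HSC replicate 2. Calls of Ccl5, Prg2, Epx, Siglecf, Mcpt8, Ms4a2, H2-Aa and Cd68 were lost whichever LT-HSC array was left out, those of Gzma and Klrd1 without replicate 2 and that of Nkg7 without replicate 1; Epx was also lost without ST-HSC replicate 3. Granulocyte markers summed to 3888 and 611 in LT-HSC, compared with 6338 and 52481 in ST-HSC, so that ST-HSC replicate 3 stood apart. The LT-HSC arrays differed in them too, with a list median of -2.42 for replicate 2 minus replicate 1. Stromal markers summed to 110 and 172 in LT-HSC, compared with 421 and 349 in ST-HSC, with Cdh5, Cspg4 and Pdgfra under 16 throughout. Pdgfrb alone gave 9.82 and 31.5 of the stromal sum in LT-HSC, compared with 311 and 152 in ST-HSC. Of the 8 granulocyte markers Mpo was lower in LT-HSC (-5.16), with each array left out too, and of the 6 tested stromal markers Pdgfrb was lower (-2.67), a call lost whichever LT-HSC array was left out. The sort marker Cd34 read 18.3 and 23.5 in LT-HSC, compared with 841 and 1142 in ST-HSC (-4.78, SE 0.31, adjusted p = 0.000473). Kit was also lower (-1.02), a call lost whichever LT-HSC array was left out, with differences of -1.03 and -0.97. Flt3 did not pass (-1.37). Lost calls were not particular to these markers, as calls over all probe sets changed widely with an array left out. The plasma cell and B-cell markers moved with the member genes, and their part in the members' differences was not tested.

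**Figure D5:**
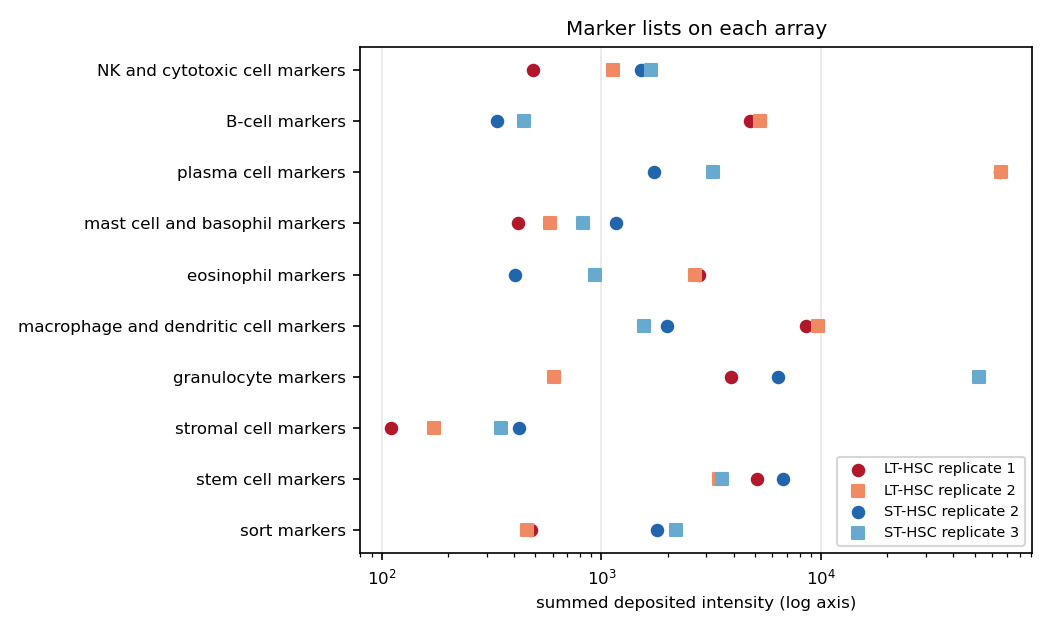
Summed deposited intensity of each marker list on each array (log axis, 1 probe set a gene), with LT-HSC in red shades and ST-HSC in blue shades. Plasma cell and B-cell sums lie far to the right in LT-HSC, stem cell sums overlap, and the granulocyte sum of ST-HSC replicate 3 stands apart.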

How the data were processed

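Per the labels' protocols, Trizol-purified RNA of the sorted cells went through 2 rounds of amplification and biotin labelling. The authors deposited 1 intensity per probe set and array, on a linear scale. How the probes were summarised, and whether arrays were scaled, is not given in the sources used here. Affymetrix controls (64) were left out. Values were taken as log2(intensity + 16) and quantile normalized, since array medians spanned 0.33 on that scale. Probe sets with a mean above the 40th percentile (27022) were compared in limma 3.58.1 (R 4.3.3; lmFit, eBayes with an intensity trend, 2 residual degrees of freedom), with Benjamini-Hochberg adjustment over all of them and a threshold of 0.05. Differences of dimmer probe sets, and their SE, came from the same fit without the filter. Genes were named through the supplied platform annotation (1 symbol for 34945 probe sets, several for 932, none for 9160) and read at their brightest tested probe set. Arrays carry no counts, so their number limits the precision. An exact permutation test (two-sided) of 2 arrays against 2 cannot go below p = 0.33. Replicates may be technical, and p-values measure only the spread between these samples, which limma shares in part over probe sets. The shared part carried a median of 4.84 degrees of freedom, beside the 2 residual ones.

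The members and lists were chosen with earlier results of these data known. Named genes are all members, up to 6 genes a direction of largest difference per list among those called with no overlap of the groups, a set of receptor and factor genes named whatever their values, and up to 3 genes a direction per marker list. Chromosomal neighbours, Ltb, Blk, Lat, Cd4, Cd8a, Ptcra, Il13, Il5, Jak1, Stat5b, Cish, Pim1 and Cd86 were added after their values were seen. So were Mcl1, Bcl2, Socs2, Csf1r, Adgre1, Marco and the dim or exceptional genes. Protein sequences were not used here. One allele that all the mice share is not reported here. The procedure was tested on simulated data with a common spread for all probe sets and both groups, which does not cover groups of unequal spread. Alternatives were other normalizations, pseudocounts, filters and spread models, any called probe set of a gene, and the omission of each array, after which the filter was applied anew.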

Additional observations from a re-analysis of the deposited data

How the results depend on the processing

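Of 23 member probe sets, 20 kept the sign of their difference under all 11 alternatives (7 other settings and 4 omissions of an array); the exceptions were the Rora probe sets 1441085_at, 1436325_at and 1458145_at. Of 253 member values under alternatives, 203 moved by less than the spread between arrays and 50 by more, 34 of these with another pseudocount. The median difference of the members was 2.295 with a pseudocount of 1 and 0.894 with 64, against 1.674, and 1.426 to 1.745 with each array left out. Over all probe sets, 1816 were called higher in LT-HSC and 1480 lower. With an array left out these counts ran between 401 and 4247 and between 13 and 4527. The calls higher in LT-HSC ran between 1 and 7 for the T-cell list (6 with all arrays) and between 2 and 9 for the innate lymphoid list (7), and calls lower between 0 and 1 for the T-cell list (0). The list of receptor partners had 0 calls either way. It had 3 higher and 1 lower with arrays centred on their medians, 2 higher with no normalization, 1 higher with a pseudocount of 64, 4 higher when any probe set counted, and 0 to 10 higher and 0 to 3 lower with an array left out. The cause of these changes was not tested. Other settings left every list count within 1.5 times. Dim probe sets limit what can be read: Cxcr6 in ST-HSC lay near 0, so its fold is set by the pseudocount, and 15 of the 23 member differences moved by over 1.5 times with a pseudocount of 1 or 64. No paired analysis was possible because LT-HSC and ST-HSC share only replicate number 2.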
